A study of Mus musculus with 8 samples.

Results

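Transcripts of the tumour suppressor p53 (Trp53), of a set of its target genes and of the CDK inhibitors p21 (Cdkn1a) and p27 (Cdkn1b) were followed in invariant natural killer T (iNKT) cells from mouse skin and spleen. The set holds 9 of the 22549 genes in the deposited table: Trp53, Cdkn1a, Mdm2, Trp53inp1, Ccng1, Gadd45a, Gadd45b, Gadd45g and Cdkn1b. They were picked by name, with the difference between skin and spleen already known, so that difference is given for them as a description and no test is attached to it. iNKT cells are T cells whose semi-invariant receptor recognises lipids bound to CD1d. The study sequenced RNA of iNKT cells from skin in 4 libraries and from spleen in 4 libraries, all with the genotype CCR10+/EGFP, in which 1 allele of the chemokine receptor gene Ccr10 carries a green fluorescent protein. Skin and spleen are the only groups. The labels name no treatment, age or pooling, and do not say that the libraries came from separate animals, so the spread between them may be technical.

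p53 is a transcription factor that is kept low by the ubiquitin ligase Mdm2, itself a p53 target, and that accumulates after DNA damage and other stress. Its target p21 binds and inhibits cyclin-dependent kinases (CDKs) and so holds cells before DNA replication, while p27, a relative of p21, is known for keeping resting lymphocytes out of the cell cycle. The GADD45 proteins are small stress sensors that bind upstream kinases of the p38 and JNK pathways and the replication clamp PCNA, and Gadd45b and Gadd45g are known in T cells for raising p38 activity and interferon gamma output. p21 and the GADD45 genes can also be induced without p53.

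Library totals ranged from 7191131 to 9791973 expected counts, and levels are expressed as CPM, in which the counts of every library are brought to the same total. Genes with a count numbered 5302 to 6012 in a skin library and 6415 to 10094 in a spleen library. The 8 T cell and iNKT markers summed to 3095 to 4048 CPM in skin and to 4287 to 6242 CPM in spleen. Zbtb16, the defining transcription factor of the iNKT lineage, was present in all 8 libraries, with its lowest level, 5.24 CPM, in spleen replicate 2. Cd247 had no count in skin replicate 4 and in spleen replicates 1 and 2. Thy1 was at 0.606 CPM in skin replicate 1. Of the 8 markers edgeR called 1, Cd3d, which was lower in skin at an adjusted p of 0.025. The other 7 were not called. The 6 B cell markers found in the table had no count in skin and summed to 31.5 to 166 CPM in spleen. The 10 keratinocyte markers summed to 273 to 1032 CPM in skin and to 0 to 29.5 CPM in spleen. Spleen replicate 4 stood apart from the other spleen libraries in a set of 16 immediate early genes, which respond to a stimulus within minutes. Their sum was 9479 CPM there, 820 to 1135 CPM in spleen replicates 1 to 3 and 10993 to 23151 CPM in skin.

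Cdkn1a was present in every skin library and almost absent from spleen. Its level was 663, 802, 858 and 286 CPM in skin replicates 1 to 4. It was 0 CPM in spleen replicates 1 to 3 and 2.53 CPM in spleen replicate 4, where 17 counts were found. The tissues did not overlap, and the lowest skin library, replicate 4, stood far above every spleen library. The means were 652 ± 257 CPM in skin and 0.632 ± 1.26 CPM in spleen (SD, n = 4 each), a log2 difference of 10.03 with an SE of 1.88. Without spleen replicate 4 no spleen library had a count, and Cdkn1a was at least 1843-fold higher in skin, with 3 counts in each spleen library taken as the floor. This bound covers counting error only and not transcripts lost before sequencing. In bulk samples, fewer cells that express a gene and less RNA per cell cannot be told apart.

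Other transcripts moved with Cdkn1a between the tissues. The keratinocyte markers summed to 892, 334, 1032 and 273 CPM in skin replicates 1 to 4, with Dsp at 0 in all libraries and Krt1 at 0 in skin. This sum and Cdkn1a were both highest in skin replicate 3 and lowest in replicate 4, while replicates 1 and 2 stood in opposite order. The sum of the 9 myeloid markers was also higher in skin. It was 354, 306, 324 and 228 CPM in skin replicates 1 to 4 against 40.7 to 180 CPM in spleen. Most of that skin sum was Fcer1g, at 175 to 354 CPM there against 25.7 to 108 CPM in the spleen libraries. The macrophage marker Csf1r, Emr1 and the Langerhans cell marker Cd207 were at 0 in all 8 libraries. Cd68 was counted only in skin replicate 2, at 54.8 CPM. The remaining markers went the other way. Itgam, S100a8 and S100a9 were counted only in spleen libraries. Lyz2 had a skin mean of 13.1 CPM, below its spleen mean of 23.8 CPM. The 7 fibroblast markers summed to 168, 18.6, 33.1 and 0 CPM in skin replicates 1 to 4 and had no count in spleen, with Col1a2, Col3a1, Lum and Pdgfra at 0 in all libraries. Whether RNA from these other cell types was present, and its part in the Cdkn1a level, were not tested. The sum of immediate early genes was 9479 CPM in spleen replicate 4 and 10993 CPM in the lowest skin library. Cdkn1a stood at 2.53 CPM in that spleen library and at 286 CPM or more in skin. These values rest on 1 spleen library, and the part of stimulation in the Cdkn1a level was not tested. The plot of Cdkn1a and Gadd45b beside these sums shows the 4 quantities library by library.

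**Figure D1:**
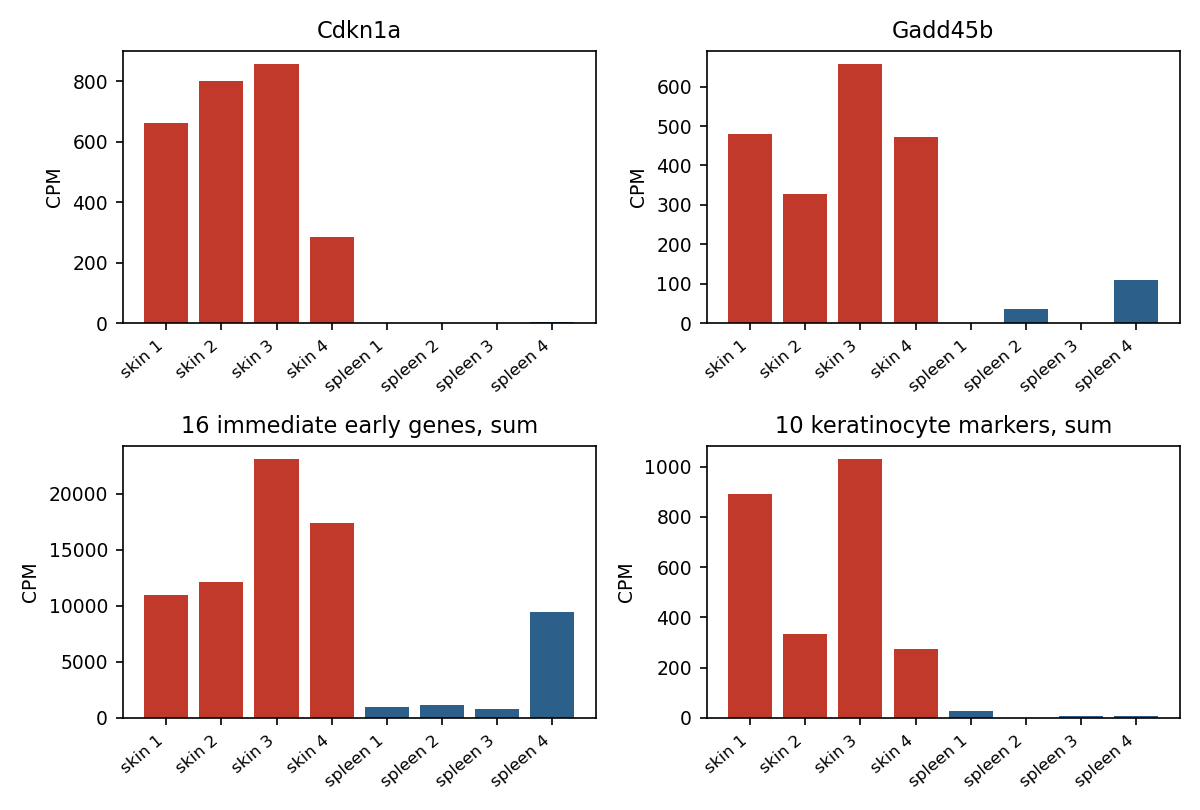
Bars give CPM (y axis, from 0, a different range in each panel) in the 8 libraries (x axis; red, skin replicates 1 to 4; blue, spleen replicates 1 to 4) for Cdkn1a, Gadd45b, the sum of 16 immediate early genes and the sum of 10 keratinocyte markers. In spleen replicate 4 the immediate early sum was 9479 CPM, Cdkn1a 2.53 CPM and Gadd45b 110.3 CPM.

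The Cdkn1a stretch below is shown because it holds a p53 site just before one of the gene's starts. RefSeq (GRCm38.p6) gives Cdkn1a 2 transcript starts in the promoter table, 2790 bases apart. The deposited counts join both starts, so which of them was used cannot be read from these data. The 250 bases before the upstream start, on chromosome 17 at chr17:29090729-29090978, plus strand, are printed 5′ to 3′. The capitals mark 20 bases that lie 51 to 32 bases before the start. Their first 10 bases match the p53 binding decamer at all 10 positions and the next 10 bases match it at 9 of 10.

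Cdkn1a, upstream start: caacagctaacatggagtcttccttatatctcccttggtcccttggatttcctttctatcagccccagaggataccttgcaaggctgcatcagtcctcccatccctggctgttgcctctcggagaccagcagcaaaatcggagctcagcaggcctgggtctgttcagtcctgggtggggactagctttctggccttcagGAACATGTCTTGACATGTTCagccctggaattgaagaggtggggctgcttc

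Of the 9 members 8 had an entry in the promoter table, with 9 windows from 250 bases before to 50 bases after the start. Trp53inp1 was not among them. The p53 decamer, searched on both strands, was found in 5 of the 9 windows, against 8.36% of all 32851 windows. A decamer that directly adjoins 10 further bases matching at 9 or more of 10 positions was found in 2 of the 9 windows, those of Cdkn1a and Ccng1, and in 29 of all windows (0.088%). Members of the set are known as p53 targets, so these matches describe the set and are no test of it. The decamers of the other 4 genes are given with 10 bases on each side, the decamer in capitals. They lie on the minus strand at chr11:40755452-40755481 (Ccng1), chr10:117710925-117710954 (Mdm2) and chr6:67037428-67037457 (Gadd45a), and on the plus strand at chr11:69580274-69580303 (Trp53).

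Ccng1: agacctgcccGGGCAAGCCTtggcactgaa

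Mdm2: agtcggatagGAACTTGCCTagcgaccatt

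Gadd45a: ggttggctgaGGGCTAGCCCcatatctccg

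Trp53: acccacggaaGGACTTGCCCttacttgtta

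The windows of Gadd45b and Gadd45g held no p53 decamer. Each held TATAAA, the sequence of the TATA box, on the gene's own strand, 46 to 41 bases before the start of Gadd45b and 27 to 22 bases before that of Gadd45g. TATAAA on either strand was found in 13.62% of all windows, and on the opposite strand also in that of Trp53, so that 3 of the 9 windows held it. TGACGTCA, the full cyclic AMP response element, and TGANTCA, the AP-1 element, were in none of the 9 windows and in 1.79% and 7.81% of all windows. The TATAAA stretches are printed with 10 bases on each side, TATAAA in capitals, from the plus strand at chr10:80930035-80930060 (Gadd45b) and chr13:51846638-51846663 (Gadd45g).

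Gadd45b: cgggaagtcaTATAAAccgctcgcag

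Gadd45g: cgagcctgtcTATAAAagggctctcc

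The 3 GADD45 genes were higher on average in skin, with most spleen values at or near 0. Gadd45b stood at 481, 328, 658 and 473 CPM in skin replicates 1 to 4. It was 0, 36.9, 0 and 110.3 CPM in spleen replicates 1 to 4. The tissues did not overlap. The highest spleen library was replicate 4, which also led the spleen libraries in immediate early genes and in genes detected. The means were 485 ± 135 and 36.8 ± 52.0 CPM (SD, n = 4 each), a log2 difference of 3.72 with an SE of 1.92, and of 5.30 without spleen replicate 4. Gadd45b varied little among the skin libraries. The SD of log2(CPM + 1) there was 0.41, beside a median of 0.66 over the 732 tested genes whose skin mean lay within 2-fold of it.

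Gadd45g was likewise higher in the skin libraries. It stood at 58.9, 159, 121 and 65.1 CPM in skin and at 0, 0, 10.7 and 46.5 CPM in spleen, replicates 1 to 4. The lowest skin library and the highest spleen library were close but did not overlap. The means were 101.0 ± 47.8 and 14.3 ± 22.1 CPM (SD, n = 4 each), a log2 difference of 2.82 with an SE of 2.25, and of 4.82 without spleen replicate 4. Gadd45a, the member of the family classically tied to p53, stood at 59.0, 114, 0 and 98.8 CPM in skin replicates 1 to 4. In spleen it was 0 CPM in replicates 1 to 3 and 14.7 CPM in replicate 4. The tissues overlapped through skin replicate 3, where it had no count. The means were 67.9 ± 50.8 and 3.68 ± 7.36 CPM (SD, n = 4 each), a log2 difference of 4.20 with an SE of 3.09. Without spleen replicate 4 no spleen library had a count, and Gadd45a was at least 192-fold higher in skin. This bound too covers counting error only.

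A single 0 at the level of Gadd45a is common in these libraries. Among tested genes averaging 50 to 100 CPM in the other 3 skin libraries, 30.4% of skin values were 0, against 11.2% of spleen values for genes at that level in spleen. At 200 to 500 CPM the shares were 3.69% in skin and 0.812% in spleen. Values of 0 at the level of Gadd45a were thus more common in skin than in spleen. Spleen replicate 4 was the spleen library with the most genes detected and the only one with a count for all 9 members. Spleen replicates 1 to 3 had counts for 4, 5 and 6 of them, and skin replicates 1 to 4 for 8, 8, 7 and 9.

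**Figure D2:**
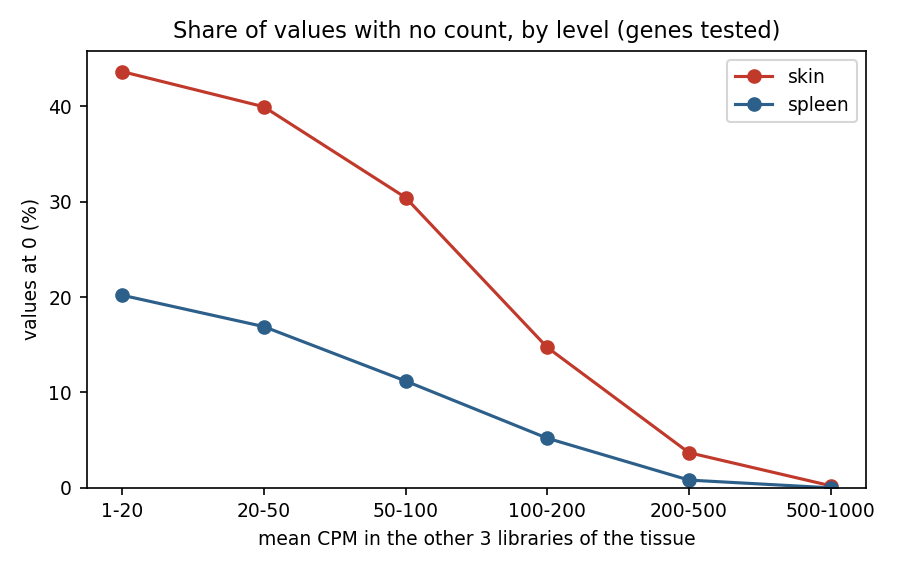
The y axis gives the percent of values with no count in skin (red) and spleen (blue) libraries, for tested genes grouped by their mean CPM in the other 3 libraries of the tissue (x axis). The share fell from 43.6% at 1 to 20 CPM to 0.219% at 500 to 1000 CPM in skin, and from 20.2% to 0% in spleen.

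Trp53 itself stood at much the same level in both tissues. It was 363, 237, 374 and 429.5 CPM in skin and 445, 337, 464 and 402.5 CPM in spleen, replicates 1 to 4. The tissues overlapped, with the lowest value in skin replicate 2. The means were 351 ± 81.2 and 412 ± 56.2 CPM (SD, n = 4 each), a log2 difference of -0.23 with an SE of 0.27. It was also among the steadier genes of its level. The SD of log2(CPM + 1) was 0.37 in skin and 0.20 in spleen, where the medians over genes within 2-fold of its level were 0.73 and 0.43. p53 activity is set largely through the stability of the protein, which these counts do not measure.

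Mdm2, the ligase that degrades p53, overlapped between the tissues. Its level was 62.2, 54.6, 66.9 and 248 CPM in skin and 140.4, 8.43, 84.8 and 128 CPM in spleen, replicates 1 to 4. Skin replicate 4 stood high and spleen replicate 2 low. The means were 107.8 ± 93.4 and 90.3 ± 59.5 CPM (SD, n = 4 each), a log2 difference of 0.26 with an SE of 1.09. Its sign rested on single libraries: without skin replicate 4 the difference was -0.60, and without spleen replicate 2 it was -0.14.

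Trp53inp1, which promotes p53 phosphorylation and cell death, showed the widest range in spleen among the members counted in every library. It stood at 74.8, 46.9, 48.9 and 353 CPM in skin and at 1.36, 257, 90.1 and 145 CPM in spleen, replicates 1 to 4. As with Mdm2, skin replicate 4 was the high skin library. The means were 130.9 ± 148 and 123 ± 107 CPM (SD, n = 4 each), a log2 difference of 0.09 with an SE of 1.28. The difference was -1.16 without skin replicate 4, -0.33 without spleen replicate 1 and -0.04 without spleen replicate 3.

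Ccng1, which encodes cyclin G1, a p53 target that feeds back on Mdm2, had 1 high skin library. It stood at 809.9, 137, 94.0 and 247 CPM in skin and at 77.6, 98.3, 263 and 189 CPM in spleen, replicates 1 to 4. Apart from skin replicate 1 the tissues covered the same range. The means were 322 ± 332 and 157 ± 85.8 CPM (SD, n = 4 each), a log2 difference of 1.04 with an SE of 0.74. Without skin replicate 1 the difference was -0.003.

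The p53 targets did not share a library order in skin. Skin replicate 4 had the highest Mdm2 and Trp53inp1 and the lowest Cdkn1a, while Ccng1 was highest in skin replicate 1 and Gadd45b in skin replicate 3. Cdkn1b had a count in 1 skin library and 2 spleen libraries only. It stood at 0 CPM in skin replicates 1 to 3 and 10.3 CPM in replicate 4, and at 0, 0, 24.5 and 31.8 CPM in spleen replicates 1 to 4. The values overlapped, and with 73 counts in skin and 386 in spleen the gene fell below the filter on low counts and was not fitted.

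**Figure D3:**
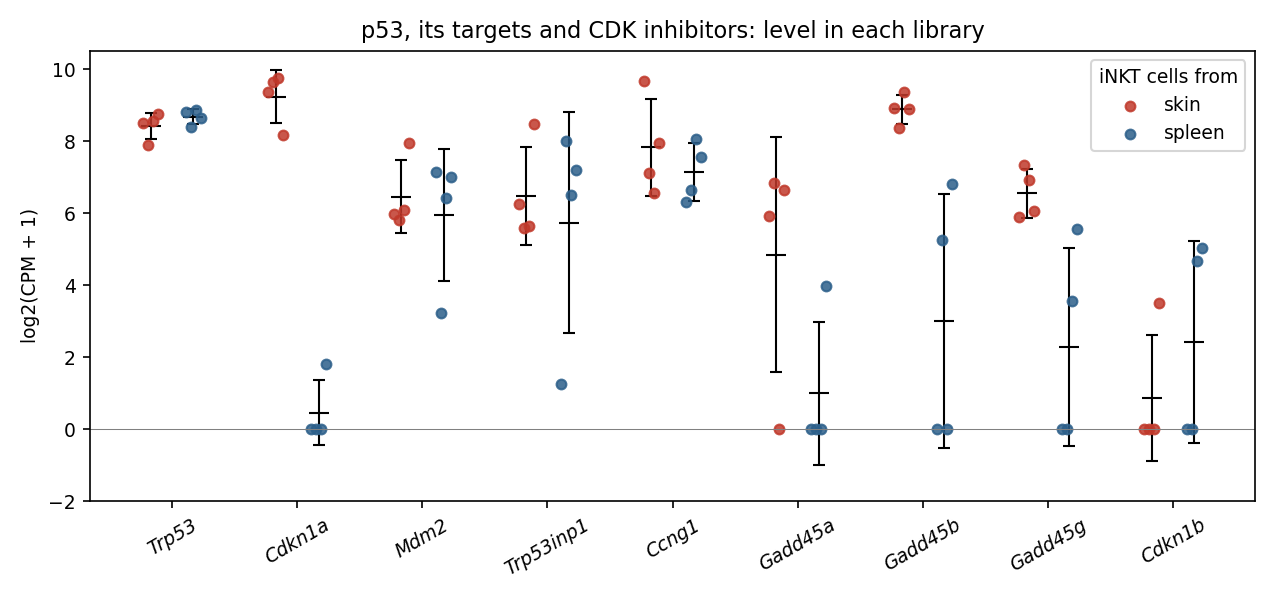
Each point is 1 library of iNKT cells (red, skin; blue, spleen), with the level as log2(CPM + 1) on the y axis and the 9 members on the x axis; horizontal ticks and bars give the mean and SD of 4 libraries on that scale. Skin points lie above all spleen points for Cdkn1a, Gadd45b and Gadd45g, while the tissues overlap for the other 6.

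**Figure D4:**
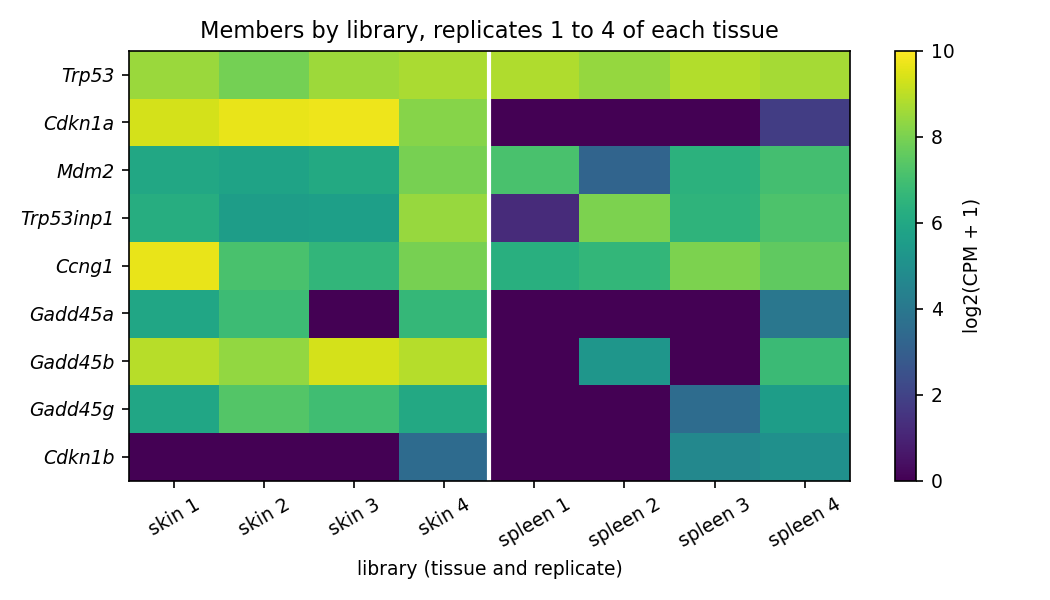
Colour gives log2(CPM + 1) for the 9 members (rows) in skin replicates 1 to 4 and spleen replicates 1 to 4 (columns, tissues parted by the white line). Trp53 stays between 237 and 464 CPM across all 8 libraries, and spleen replicate 4 is the only spleen library with a count for all members.

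Over the set, 8 of the 9 members passed the filter on low counts, 3 of them did not overlap and were higher in skin, and 5 overlapped. Of all 6920 genes tested, 6.11% did not overlap and were higher in skin and 13.4% did not overlap and were lower. edgeR's quasi-likelihood fit across all genes called 1 of the 8, Cdkn1a, higher in skin, where it called 1.85% of all genes tested, and none lower. These shares stand beside the counts for scale only, because the set was chosen with this comparison known. For the same reason the call is a description and no test of Cdkn1a. With 17 counts in spleen, Cdkn1a passed the filter through its skin libraries. The call of Cdkn1a held in 2 of the 8 fits that left out 1 library, those without skin replicate 4 and without spleen replicate 4, and was lost without any other library and with the replicate number as a block.

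Among 31 other target genes of p53, 28 had a count in some library and 17 passed the filter. Of these 17, 1 was higher in skin and 1 lower at a Benjamini-Hochberg adjusted p under 0.05, beside 1.85% and 3.58% of all genes tested. The median log2 difference of the 17 was 0.26, against -0.29 over all genes tested. Perp, a membrane protein of desmosomes and a p53 target in cell death, rose. It stood at 198, 151, 188 and 76.0 CPM in skin replicates 1 to 4 and had no count in spleen, so it was at least 407-fold higher (edgeR adjusted p = 0.0328). Perp is also a keratinocyte gene and is on that marker list; the other 9 keratinocyte markers summed to 693, 184, 844 and 197 CPM in the same libraries. Their part in the Perp level was not tested. Aen, a nuclease induced by p53 in apoptosis, fell. It had no count in skin and stood at 61.8, 66.5, 96.3 and 49.9 CPM in spleen, at least 177-fold lower (edgeR adjusted p = 0.0473). The bounds of Perp and Aen cover counting error only and not transcripts lost before sequencing. With no count in 1 tissue, Perp and Aen passed the filter only through their counts in the other. The filter admits such a gene only when the tissues are separated, so these calls describe the separation and are no independent test of it. When libraries were left out in turn, Perp was called again only without skin replicate 4, 1 fit of the 8, and Aen in none.

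Btg2, an antiproliferative p53 target that is also an immediate early gene, stood at 1125.5, 1155.5, 1107 and 477 CPM in skin. It was 73.9, 556, 324 and 580 CPM in spleen, and the tissues overlapped (log2 difference 1.33, SE 0.58; edgeR adjusted p = 0.383). Plk3, a stress-responsive kinase picked out here after its values were seen, stood at 221 to 649 CPM in skin against 0 to 115 CPM in spleen without overlap, and was not called (edgeR adjusted p = 0.801). Rrm2b, a p53-induced subunit of ribonucleotide reductase also picked out after its values were seen, lay the other way. It had no count in skin and stood at 97.2, 33.9, 7.84 and 7.28 CPM in spleen replicates 1 to 4. That is at least 94.5-fold lower, a bound that covers counting error only. Rrm2b was not called by edgeR (adjusted p = 0.0632), and DESeq2 called it lower. It passed the filter through its spleen libraries only. Bax, the apoptosis effector, stood at 99.3 ± 37.1 CPM in skin against 157 ± 27.7 CPM in spleen (SD, n = 4 each; edgeR adjusted p = 0.989); it too was chosen after its values were seen. Of the 17 tested target genes 10 had a log2 difference above 0 and 7 below. This split leaves out the genes that did not pass the filter. Of those with a count, Pidd1, Pml, Xpc, Zmat3, Tigar, Sesn2 and Ddit4 had the lower mean in skin. Apaf1, Gdf15, Phlda3 and Plk2 had the higher mean there.

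None of the other CDK inhibitors was called, where 1.85% of all genes tested were called higher and 3.58% lower. For so few genes, no call is near those shares. Of 5 genes, Cdkn2a and Cdkn2b had no count in any library, and 2 passed the filter. Cdkn2d, which encodes the CDK4 and CDK6 inhibitor p19, stood at 282, 599.9, 468 and 44.6 CPM in skin and at 204, 72.4, 139.5 and 174 CPM in spleen, replicates 1 to 4. Skin replicate 4 was the lowest of all 8 libraries, as it was the lowest skin library for Cdkn1a (Cdkn2d log2 difference 1.24, SE 0.71; edgeR adjusted p = 0.654). Cdkn2c, encoding p18, stood at 172, 0, 16.9 and 22.6 CPM in skin and at 53.4, 38.4, 102.8 and 21.9 CPM in spleen. Cdkn1c, encoding p57, had counts in skin replicates 1 and 4 only (47.5 and 7.48 CPM) and was not tested.

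Of 21 kinases, ligases and cofactors of p53, 12 passed the filter and none was called in either direction (median log2 difference 0.66). Over all genes tested 1.85% were called higher and 3.58% lower, with a median of -0.29, so no call here is near those shares. Usp7, a protease that removes ubiquitin from Mdm2 and p53, stood at 186 ± 199 CPM in skin against 95.5 ± 83.7 CPM in spleen. The adaptor Daxx stood at 74.8 ± 74.3 and 95.1 ± 67.7 CPM, and Rchy1, another ligase for p53, at 73.8 ± 33.6 and 73.3 ± 23.8 CPM (SD, n = 4 each). Their edgeR adjusted p were 0.998, 0.998 and 1. For Usp7 and Daxx the SD was near to or above the mean in skin. Of the 12 tested genes, 8 had a log2 difference above 0 and 4 below. The largest differences, picked out after the values were seen, were lower in skin without overlap. Huwe1 stood at 3.74 ± 7.20 and 84.6 ± 81.9 CPM (log2 difference -4.49, edgeR adjusted p = 0.617). Crebbp stood at 3.13 ± 3.05 and 30.3 ± 13.6 CPM (log2 difference -3.27, edgeR adjusted p = 0.454).

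The CDKs and cyclins that p21 and p27 bind numbered 12, of which 8 passed the filter and none was called (median log2 difference -0.10). This too is near the shares over all genes tested, 1.85% higher and 3.58% lower. The D cyclins Ccnd3 and Ccnd2 stood at 1043 ± 451 and 678 ± 112 CPM in skin and at 698 ± 175 and 917 ± 197 CPM in spleen (SD, n = 4 each). Cdk4, their kinase, stood at 152, 121, 62.4 and 126 CPM in skin and at 235, 346, 370.4 and 310.4 CPM in spleen, replicates 1 to 4. Its values did not overlap, with a log2 difference of -1.45 and an SE of 0.42, and it missed the threshold in edgeR's test (adjusted p = 0.0927). DESeq2 called it lower.

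Genes that set the level of p27 numbered 10, and none of the 7 that passed the filter was called (median log2 difference -0.04). Again this is near the 1.85% called higher and 3.58% called lower over all genes tested. Rbx1, a subunit of the ubiquitin ligase that degrades p27, stood at 171 ± 75.4 CPM in skin against 396 ± 109.8 CPM in spleen without overlap (edgeR adjusted p = 0.153). Its partner Skp1a stood at 484 ± 233 and 321 ± 82.5 CPM, and Foxo1, a transcription factor that induces p27, at 334 ± 261 and 165.5 ± 67.8 CPM (SD, n = 4 each; edgeR adjusted p = 0.821 and 0.778).

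Among 8 partners of the GADD45 proteins 6 passed the filter, 1 rose and none fell (median log2 difference 1.01). Over all genes tested 1.85% were called higher and 3.58% lower, with a median of -0.29. Map2k3, which encodes the kinase MKK3 that activates p38, stood at 1557, 2647.5, 2001 and 1163 CPM in skin replicates 1 to 4. It was 329, 354, 266 and 195 CPM in spleen. Every skin library was above every spleen library, with means of 1842 ± 637 and 286 ± 71.0 CPM and a log2 difference of 2.69 with an SE of 0.31 (edgeR adjusted p = 0.00373). Map2k3 was called again in all 8 fits that left out a library and with the replicate block. Mapk14, encoding p38 alpha, stood at 283 ± 93.4 and 124 ± 38.7 CPM without overlap and did not pass edgeR's test (adjusted p = 0.257), while DESeq2 called it higher. Pcna stood at 409.8 ± 189 and 232 ± 43.9 CPM (SD, n = 4 each; edgeR adjusted p = 0.471).

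**Figure D5:**
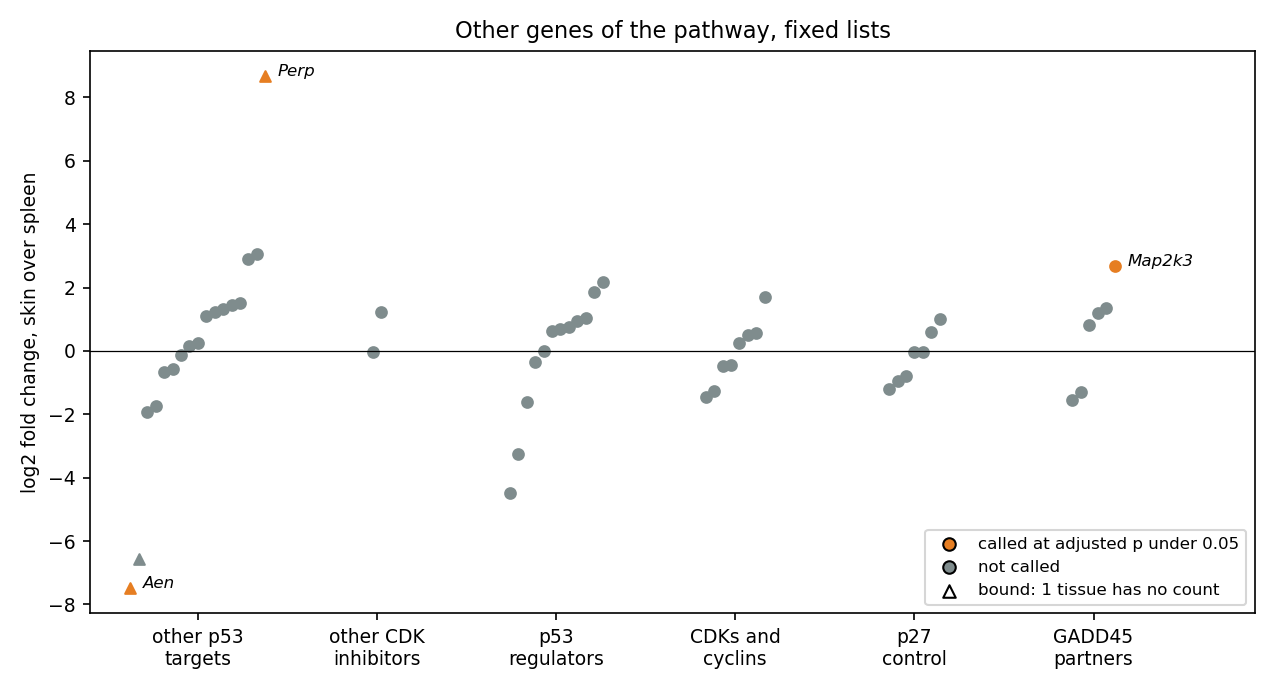
Each point is 1 tested gene of the 6 fixed lists (x axis), with the log2 fold change of skin over spleen on the y axis; orange, called by edgeR at an adjusted p under 0.05; grey, not called; triangles, bounds against a floor of 3 counts for genes with no count in 1 tissue. Perp and Map2k3 were called higher and Aen lower, and the other lists held no called gene.

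Immediate early genes are given beside the members because p21 and the GADD45 genes also respond to acute stimuli. Of the 16, 12 passed the filter and 1 rose, Nr4a2, beside 1.85% of all genes tested. Nr4a2 stood at 580 ± 482 CPM in skin and had no count in spleen (edgeR adjusted p = 0.00512). It passed the filter through its skin libraries only, so its call is no independent test of the separation. The number of these genes called depended on spleen replicate 4. Without that library 8 of the genes were called higher, Nr4a2, Atf3, Fos, Fosl2, Ier2, Junb, Ppp1r15a and Zfp36. In that fit 64 of all 7052 genes tested were called higher. Spleen replicate 4 stood apart in these same genes, so the larger count is no test of them. DESeq2 on all 8 libraries called 5 higher, beside 295 of all 6920 genes tested. Atf3, a stress-induced transcription factor, stood at 240, 590, 650 and 642 CPM in skin replicates 1 to 4. It was 0 CPM in spleen replicates 1 to 3 and 19.9 CPM in replicate 4. Cdkn1a, Gadd45a and Atf3 thus shared their only spleen value above 0 with the library in which Fos (950.0 CPM, at most 0.0974 CPM in the other 3) and Junb (3048 CPM, 156 to 236 CPM in the other 3) were high. That library also had the most genes with a count in spleen, 10094 against 6415, 6897 and 8690 in replicates 1 to 3. The parts of detection, handling and stimulation in the levels of Cdkn1a and the GADD45 genes were not tested.

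The genes whose levels most resembled each member were found by the mean absolute difference of log2(CPM + 1), centred on each gene's mean, over the 8 libraries and 6919 other tested genes. This is a description of 8 libraries in 2 tissues. For Cdkn1a they were Gch1, the first enzyme of tetrahydrobiopterin synthesis, and Ramp3, a partner of calcitonin-family receptors (0.56 and 0.66, where the median gene was 4.85 away). Gch1 stood at 453 to 634 CPM in skin, and like Cdkn1a had a spleen count in replicate 4 only, at 12.9 CPM. For Gadd45b they were Coq10b and the orphan nuclear receptor Nr4a1 (0.39 and 0.61, median 3.63). For Gadd45a they were the inhibitory receptor Ctla4 (0.29) and Tdrd3 (0.31), which both lacked a count in skin replicate 3 as Gadd45a did. For Gadd45g they were Dhx40 (0.48) and Slc31a1 (0.52).

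For Ccng1, Mdm2 and Trp53inp1, which overlapped between the tissues, most of the nearest genes shared their highest or lowest library of a tissue with the member. Ccng1 was nearest to Cdc42ep3 (0.29) and Znrf1 (0.38). Cdc42ep3 was also highest in skin replicate 1, at 516 CPM, while Znrf1 was highest in skin replicate 4, at 187 CPM. Mdm2 was nearest to Sphk2 (0.45) and Nsmaf (0.45), both highest in skin replicate 4. Trp53inp1 was nearest to Gmcl1 (0.53) and Hsf1 (0.54), both with no count in spleen replicate 1, where Trp53inp1 was lowest, at 1.36 CPM. Trp53 was nearest to Nkg7 (0.15) and Puf60 (0.15), where the median gene was 1.97 away, and these had a count in every library, Puf60 at 343 to 509 CPM in skin and 432 to 512 CPM in spleen.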

How the data were processed

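RNA was measured in 8 libraries with a full-length, low-input cDNA kit (SMART-Seq v4) that does not mark strand, per the labels' protocols. The authors deposited RSEM expected counts for each gene, per the submitters' processing notes, which also name FastQC, DESeq2 1.16.1 and mm9; the aligner and annotation are not given in the sources used. Columns were matched to libraries by the descriptions in the labels. Reads shared by paralogs, or by genes that overlap on either strand, are assigned with uncertainty. Promoter sequences are RefSeq's on GRCm38.p6 and were not joined to mm9 coordinates.

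Expected counts were rounded and tested with edgeR 4.0.16 in R 4.3.3: filterByExpr (6920 genes), TMM, a robust quasi-likelihood fit with tissue as the only term, Benjamini-Hochberg at 0.05. The SE is the log2 fold change over the square root of F. CPM use TMM-scaled totals, in which 3 counts are 0.292 to 0.454 CPM; such floors cover counting error only. The fit was tested on simulated data with dispersions below the common dispersion of 2.94 found here. That test therefore does not show its error rate in these libraries. No 2 libraries agreed within sampling noise (chi-square over its degrees of freedom at least 112). Of 152 symbols in the lists 151 matched, 4 of them by an older symbol.

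Members and lists were chosen with earlier results of these data known. Named are the 9 members; per list, up to 3 called genes in each direction and, below 3, those of highest mean CPM; Fos, Junb, Atf3 and Btg2; the 2 genes most like each member; and markers beside their list. Alternatives were RLE scaling, no filter, 5 CPM in 4 libraries, DESeq2 1.42.0, rounding down, a replicate block and each library left out.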

Additional observations from a re-analysis of the deposited data

Results flagged for a closer look

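In 60 groups of 4 libraries (32 named genes by tissue, where values varied), 13 libraries stood apart from the other 3 by a gap that, over the group's range, exceeded Dixon's critical value for 4 values, which chance does in about 1 group in 20 for normally distributed values. These CPM hold many values of 0, so that rate does not apply to them: a group with 3 values of 0 and 1 count passes by construction, as for Cdkn1a, Gadd45a and Atf3 in spleen and Cdkn1b in skin. Skin replicate 4 was high for Mdm2 (248 CPM, others 54.6 to 66.9), Trp53inp1 (353 CPM, others 46.9 to 74.8) and Cdkn1b (10.3 CPM, others 0), and low for Btg2 (477 CPM, others 1107 to 1155.5). Spleen replicate 4 was high for Cdkn1a (2.53 CPM, others 0), Gadd45a (14.7 CPM, others 0) and Atf3 (19.9 CPM, others 0). It was also high for Fos (950.0 CPM), Junb (3048 CPM) and Dusp1 (2032 CPM, others 0.998 to 239). Skin replicate 1 was high for Cdkn2c (172 CPM, others 0 to 22.6) and Cdkn1c (47.5 CPM, others 0 to 7.48), and low for Atf3 (240 CPM, others 590.1 to 650).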

How the results depend on the processing

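All genes called numbered 376 (128 higher, 248 lower), against 145 (97 and 48) with no filter, 742 (295 and 447) with DESeq2 and 64 to 213 (47 to 102 higher, 17 to 111 lower) without 1 library. With the replicate block 50 were called (36 and 14). The labels do not say that equal numbers share an animal, so the block was kept as an alternative. Deviations correlated at 0.001 to 0.014 for same-numbered libraries and at -0.028 to 0.042 for the other pairs. With all correlations near 0, they cannot show whether same-numbered libraries share an animal. The other p53 targets called numbered 2, against 1 with no filter, 0 with the replicate block and 0 to 1 without 1 library. DESeq2 called 1 of the CDKs and cyclins and 2 GADD45 partners, against 0 and 1 with edgeR. The edgeR adjusted p of Perp ranged up to 0.355 and that of Aen up to 0.355, both with the replicate block. RLE scaling, a filter of 5 CPM and rounding down kept the number of genes called within 1.5 times. Under RLE scaling the log2 difference of Cdkn1a was 10.19. The signs of the log2 differences of Trp53, Cdkn1a and the GADD45 genes held in all 14 alternatives, but their sizes moved for Cdkn1a and the GADD45 genes. With the replicate block they were 12.75 for Cdkn1a, 8.55 for Gadd45a, 7.46 for Gadd45b and 6.86 for Gadd45g, against 10.03, 4.20, 3.72 and 2.82. Without spleen replicate 4 they were 5.30 for Gadd45b and 4.82 for Gadd45g, and Cdkn1a and Gadd45a had no spleen count. For genes averaging 50 to 100 CPM in the other 3 skin libraries 30.4% of skin values were 0, where 3 counts are 0.330 to 0.454 CPM. Counting error at these totals does not give a 0 at that level, and what gave it was not tested.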

Other observations

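Cdkn1b, Cdkn2a, Cdkn2b and Cdkn1c together gave a count above 0 in few libraries: Cdkn1b in 1 skin and 2 spleen libraries, Cdkn1c in 2 skin libraries, and the other two in none. Of the GADD45 partners, Map2k6, another kinase that activates p38, had no count in skin. It stood at 0, 116, 0 and 11.6 CPM in spleen replicates 1 to 4. Map2k6 was not tested and was picked out after its values were seen.

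Skp2, the receptor subunit that marks p27 for degradation, had no count in skin and stood at 36.9 and 23.0 CPM in spleen replicates 3 and 4, with no count in spleen replicates 1 and 2; it was not tested. Ccnb1, the mitotic cyclin B1, had no count in skin and in spleen replicate 1 and stood at 49.8, 102.3 and 76.0 CPM in spleen replicates 2 to 4. Ccna2 stood at 0, 17.5, 102.8 and 0 CPM in skin and at 65.4 to 79.0 CPM in spleen. Other genes of the CDK and cyclin list stood higher on average in skin. Cdk1 averaged 70.3 ± 79.6 CPM there against 49.1 ± 39.1 CPM in spleen, Ccnb2 66.7 ± 52.1 and 56.4 ± 43.0 CPM, and Ccne1 114.7 ± 134 and 35.5 ± 42.2 CPM (SD, n = 4 each). All 3 overlapped between the tissues, and of the 8 tested genes of that list 4 had a log2 difference above 0 and 4 below. The genes of this paragraph were chosen after their values were seen.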
